A study of Arabidopsis thaliana with 14 samples.

Results

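The genes described here are 45 nuclear genes of the photosynthetic apparatus, out of 37336 genes counted in Arabidopsis inflorescence buds. They were chosen by function from a list of gene identifiers: 14 encode light-harvesting antenna proteins of photosystem II (LHCB), 6 encode antenna proteins of photosystem I (LHCA), 12 encode photosystem I subunits (PSA), 9 encode photosystem II subunits (PSB) and 4 encode small subunits of Rubisco (RBCS). All 45 were found in the files and all passed the filter on low counts in each fit. Poly(A)+ RNA was sequenced from inflorescences with immature flower buds of stages 1 to 12, grown in long days. The wild type was the Columbia ecotype, and the mutant was aly1-2, a mutant of ALY1, a gene for an adaptor protein of mRNA export; the kind of lesion is not given. No transgene or other allele and no treatment is named for either genotype. Total extracts gave 3 libraries per genotype, and nuclear and cytoplasmic extracts gave 2 libraries per genotype each, 14 libraries in all. The study compared steady-state poly(A)+ RNA between genotypes within each extract and between nucleus and cytoplasm. The labels do not say whether the libraries came from separate plants, so p-values measure only the spread between these libraries.

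Antenna proteins bind chlorophyll and pass absorbed light energy to the photosystem cores, which split water and reduce ferredoxin. The nuclear genome encodes all antenna proteins and many peripheral photosystem subunits, while most core subunits and the large subunit of Rubisco are encoded in the plastid. In inflorescences these genes are read mainly as a sign of green tissue, such as sepals, stem and young carpels, and antenna transcripts are known to follow light and the time of day.

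Counts per library, in units of 1e6, ran from 7.23 to 12.7. Ribosomal RNA took 49.4% to 60.5% of counts in the cytoplasmic libraries and 3.64% to 6.92% in the others, so that nuclear genes other than those for ribosomal RNA held 2.1 to 3.24 of these units in cytoplasmic libraries and 6.21 to 11.5 elsewhere. ALY1 itself was at 105, 112 and 119 CPM (counts per 1e6 counts, scaled for library composition by TMM) in wild-type total RNA and at 14.1, 20.2 and 18.0 CPM in aly1-2, a log2 fold change of -2.69 (SE 0.15, edgeR adjusted p = 0.000319). The tissue label was met by floral organ identity genes: all 7 were detected, with a summed level of 774 to 893 CPM in wild-type total RNA and 986 to 1018 CPM in aly1-2. In total RNA aly1-2 replicate 1 stood apart from the other mutant libraries. Over all genes the deviations of the aly1-2 libraries numbered 1 from their group means correlated. The value was r = 0.74 between total and nuclear RNA and r = 0.29 between total and cytoplasmic RNA. With 2 libraries per fraction group, replicates 1 and 2 deviate equally, so these values cannot say which is the odd one. Medians between genotypes, and counts of genes with a positive fold change or an unadjusted p under 0.05, are therefore given with and without the aly1-2 libraries numbered 1.

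To show what lies before the genes whose levels moved together between libraries, the 250 bases upstream of 4 antenna genes are printed from RefSeq's TAIR10.1 assembly, 5′ to 3′ on the gene's own strand. LHCB1.1 (AT1G29920), LHCB2.1 (AT2G05100) and LHCB2.2 (AT2G05070), all for proteins of the major trimeric antenna, varied most between the wild-type total libraries. LHCB4.3 (AT2G40100), for a minor antenna protein, varied least. The windows are chr1:10475970-10476219 (minus strand) for LHCB1.1, chr2:1824481-1824730 (minus strand) for LHCB2.1, chr2:1800473-1800722 (minus strand) for LHCB2.2 and chr2:16745378-16745627 (plus strand) for LHCB4.3. Capitals mark the letters GATAAG (I-box) and CCAATC, searched on both strands. The G-box letters CACGTG were searched too and are in none of the 4 windows.
LHCB1.1: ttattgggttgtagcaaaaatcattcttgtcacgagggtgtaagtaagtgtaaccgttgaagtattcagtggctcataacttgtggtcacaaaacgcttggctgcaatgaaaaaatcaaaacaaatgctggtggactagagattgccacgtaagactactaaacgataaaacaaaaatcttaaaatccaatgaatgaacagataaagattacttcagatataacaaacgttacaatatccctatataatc
LHCB2.1: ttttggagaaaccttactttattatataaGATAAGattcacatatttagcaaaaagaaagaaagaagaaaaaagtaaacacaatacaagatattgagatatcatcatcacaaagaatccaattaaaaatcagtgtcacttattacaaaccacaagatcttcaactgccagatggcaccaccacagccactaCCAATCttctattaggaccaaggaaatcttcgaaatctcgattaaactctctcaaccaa
LHCB2.2: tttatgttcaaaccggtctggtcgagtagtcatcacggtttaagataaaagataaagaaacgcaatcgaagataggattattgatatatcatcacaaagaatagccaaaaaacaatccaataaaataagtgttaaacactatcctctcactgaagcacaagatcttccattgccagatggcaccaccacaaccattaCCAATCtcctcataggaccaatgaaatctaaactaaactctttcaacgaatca
LHCB4.3: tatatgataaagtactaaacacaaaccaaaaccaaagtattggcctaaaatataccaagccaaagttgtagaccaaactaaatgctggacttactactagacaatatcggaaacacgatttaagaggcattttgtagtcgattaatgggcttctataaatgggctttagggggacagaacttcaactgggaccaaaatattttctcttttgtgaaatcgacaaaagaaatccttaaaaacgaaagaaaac
LHCB2.1 and LHCB2.2 each hold CCAATC, starting 59 and 53 bases before the annotated start, and LHCB2.1 also holds GATAAG 221 bases before it. Over the 45 windows CACGTG was present in 20.0%, against 6.49% of the 27443 windows of protein-coding nuclear genes. GATAAG was in 22.2% against 12.3%, and CCAATC in 24.4% against 10.2%. CCAATC was in 7 of 14 LHCB and 3 of 6 LHCA windows, in 1 of 9 PSB windows and in no PSA or RBCS window. A match of letters is a description of the window and not a site of binding.

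In wild-type total RNA these genes were among the most abundant of the bud. They took 2.42%, 2.76% and 2.45% of the counts of nuclear genes in the 3 libraries. Per kilobase of exon, 41 of the 45 stood in the upper 10% of 20258 nuclear genes, which began at 51.3 CPM per kb, and 21 stood in the upper 1%. The 4 below the upper 10% were LHCB1.4, LHCB2.3, LHCA5 and LHCA6.

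The highest level belonged to RBCS1A (AT1G67090), at 3486 ± 177 CPM per kb (SD, n = 3), and the lowest to LHCB2.3 (AT3G27690), at 8.13 ± 3.70 CPM per kb (SD, n = 3). RBCS1A encodes the main Rubisco small subunit, and the 4 RBCS genes together held 29.2% of the CPM of all 45 genes. RBCS1B (AT5G38430) was the lowest of its family, at 147 ± 7.07 CPM per kb (SD, n = 3). RBCS1A lies on chromosome 1 (25048158 to 25049667, minus strand), whereas RBCS1B, RBCS2B and RBCS3B lie side by side on chromosome 5 (15376988 to 15385320, minus strand).

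Among the antenna genes of photosystem II, LHCB1.3 (AT1G29930) led with 1660 ± 103 CPM per kb (SD, n = 3) and LHCB1.5 (AT2G34420) followed with 1376 ± 313 (SD, n = 3). Both encode the major trimeric antenna protein. LHCB1.1, LHCB1.2 and LHCB1.3 form a cluster on chromosome 1 (10472280 to 10479114), yet LHCB1.1 reached 347 ± 211 and LHCB1.2 359 ± 96.4 CPM per kb (SD, n = 3), both below LHCB1.3 by more than their spread. These copies are close to identical and held fractional counts in all 14 libraries, so their levels relative to each other are uncertain.

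LHCA1 (AT3G54890) and LHCA4 (AT3G47470), antenna proteins that pair at photosystem I, stood at 460 ± 71.4 and 457 ± 61.6 CPM per kb (SD, n = 3) and did not differ beyond their spread. LHCA5 (AT1G45474) and LHCA6 (AT1G19150), minor antenna proteins that link photosystem I to the chloroplast NADH dehydrogenase-like complex, were lower, at 30.1 ± 1.63 and 23.5 ± 2.58 CPM per kb (SD, n = 3). Of the photosystem I subunits, PSAK (AT1G30380) was highest at 1151 ± 75.8 and PSAD2 (AT1G03130) lowest at 80.8 ± 10.8 CPM per kb (SD, n = 3). Of the photosystem II subunits, PSBR (AT1G79040) was highest at 1004 ± 86.2 and PSBO2 (AT3G50820) lowest at 95.6 ± 10.5 CPM per kb (SD, n = 3). PSBO1 (AT5G66570), the other gene for the manganese-stabilising protein, was at 670 ± 18.7 CPM per kb (SD, n = 3), well above PSBO2.

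**Figure D1:**
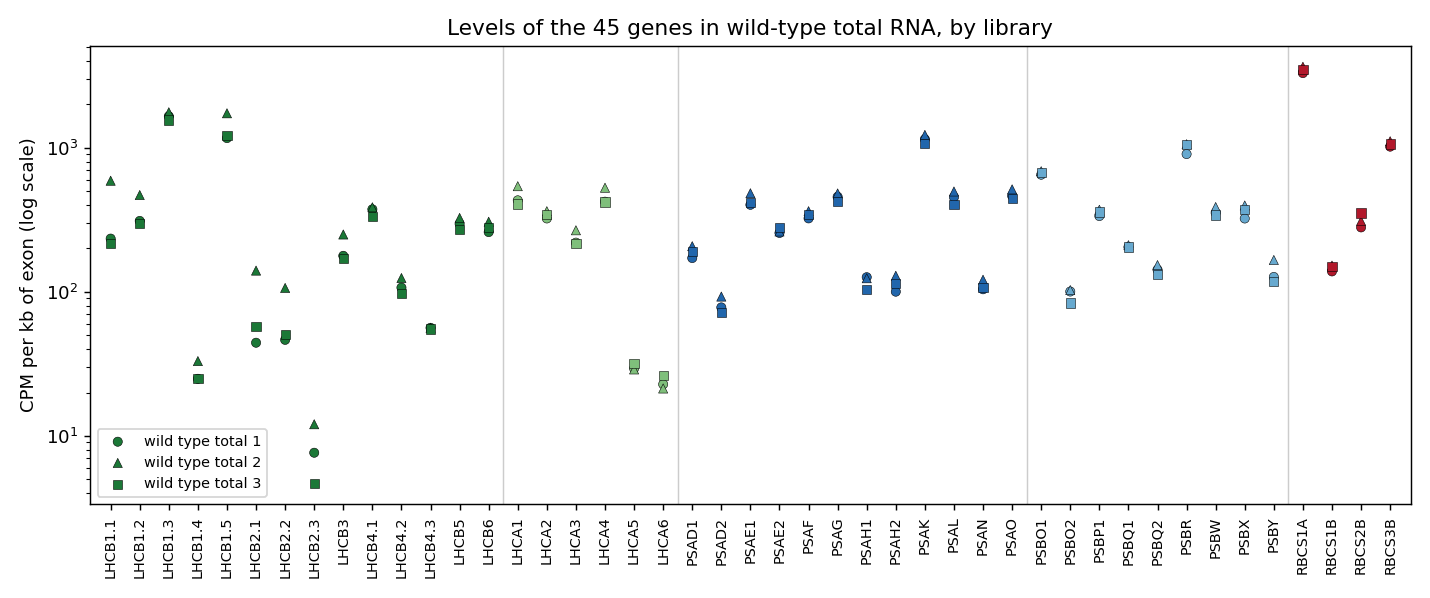
Level of each gene in CPM per kb of exon (log axis) in the 3 wild-type total libraries, 1 symbol per library, in the order LHCB, LHCA, PSA, PSB, RBCS. Most genes have symbols that nearly coincide, while LHCB1.1, LHCB2.1 and LHCB2.2 are higher in replicate 2 than in replicates 1 and 3.

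Variation between the wild-type total libraries was largest in some of the LHCB genes. The median coefficient of variation (SD over mean) was 19.5% for LHCB, 11.6% for LHCA, 8.85% for PSA, 7.35% for PSB and 4.95% for RBCS, against 9.34% over 12972 genes at 10 CPM or more. LHCB2.1 had the highest value, 64.7%, and LHCB4.3 the lowest, 1.18%. Some other antenna genes also lay below the median of all genes, such as LHCB1.3 at 6.20% and LHCA2 at 5.80%. PSBY, not an antenna gene, was at 19.0%. With 3 libraries these figures are themselves imprecise.

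LHCB2.1 was at 62.3, 198 and 80.4 CPM in wild-type total replicates 1, 2 and 3. LHCB1.1 was at 308, 776 and 284 CPM in the same libraries. LHCB4.3 was at 81.5, 81.5 and 79.9 CPM. Replicate 2 was thus high for the first 2 genes and level with the others for LHCB4.3.

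Total RNA of aly1-2 was compared with wild type to ask whether these transcripts differ with genotype. None of the 45 genes passed in either direction by edgeR's quasi-likelihood test with Benjamini-Hochberg adjustment at 0.05, where 0.475% of the 20431 genes tested passed. At an unadjusted p under 0.05 there were 14 of 45, all higher in the mutant, against 14.6% of all genes. The log2 fold change was positive for 41 of the 45, against 51.5% of all genes, and its median was 0.30 against 0.01. By role the median was 0.56 for LHCB, 0.29 for LHCA, 0.32 for PSA, 0.17 for PSB and 0.05 for RBCS. Without aly1-2 replicate 1 the log2 fold change was positive for 31 of the 45 (50.1% of all genes), and 6 had an unadjusted p under 0.05 (23.9% of all genes). The medians by role were then 0.10 for LHCB, 0.13 for LHCA, 0.22 for PSA, 0.016 for PSB and -0.064 for RBCS, so that PSA and no longer LHCB had the highest.

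The smallest adjusted p belonged to PSAN (AT5G64040), a lumenal subunit of photosystem I, named here because its p was the smallest. PSAN was at 106, 124 and 109 CPM in wild-type libraries, against 214, 170 and 149 CPM in aly1-2. The groups did not overlap, and the log2 fold change was 0.65 (SE 0.14, edgeR adjusted p = 0.106). Groups also did not overlap, with the mutant higher, for 10 of the 45 genes, against 9.24% of all genes. DESeq2 called 4 genes higher, namely PSAN, LHCB3, PSBQ2 and PSAH1, out of 553 called in all.

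The antenna gene LHCB1.1 was at 1384, 412 and 452 CPM in the aly1-2 total libraries, against 308, 776 and 284 CPM in wild type. LHCB2.1 was at 246, 84.4 and 87.1 CPM in aly1-2. In both, mutant replicate 1 was the highest of the 6 libraries, and the other mutant libraries lay inside the wild-type range. LHCB1.3, the most abundant antenna transcript, was at 3494, 2362 and 2091 CPM in aly1-2 and at 2037, 2171 and 1918 CPM in wild type. Its groups overlapped (log2 fold change 0.38, SE 0.20, edgeR adjusted p = 0.424). RBCS1A was at 5390, 4778 and 3967 CPM in aly1-2 and at 4184, 4631 and 4447 CPM in wild type, again with overlap (log2 fold change 0.09).

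The other genes at the top or bottom of their role had these values in total RNA. LHCB2.3 was at 11.2, 17.7 and 6.89 CPM in wild-type libraries, against 32.0, 19.1 and 14.9 CPM in aly1-2. LHCA1 was at 550, 689 and 518 CPM in wild-type libraries, against 1173, 663 and 649 CPM in aly1-2. In both, replicate 1 was the highest mutant library and the groups overlapped, with log2 fold changes of 0.89 and 0.50. PSAD2 was at 74.5, 88.7 and 68.5 CPM in wild-type libraries, against 132, 79.5 and 81.2 CPM in aly1-2. PSBO2 was at 133, 136 and 111 CPM and at 159, 127 and 114 CPM. PSBR was at 709, 830 and 822 CPM and at 973, 786 and 805 CPM. For these 3 genes the groups overlapped and the log2 fold changes were 0.34, 0.07 and 0.12. PSAK was at 882, 945 and 829 CPM in wild-type libraries, against 1135, 1053 and 1015 CPM in aly1-2, without overlap (log2 fold change 0.27, SE 0.11, edgeR adjusted p = 0.318). LHCA6 was at 26.5, 24.8 and 30.6 CPM and at 29.2, 24.0 and 25.0 CPM. RBCS1B was at 263, 288 and 282 CPM and at 327, 273 and 240 CPM. These last 2 had log2 fold changes of -0.06 and 0.01.

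Mutant replicate 1 was the highest of the 6 total libraries for 41 of the 45 genes, against 14.8% of all genes. The mutant nuclear library numbered 1 was the highest of the 4 nuclear libraries for 38 genes (17.5% of all genes). The mutant cytoplasmic library numbered 1 was the highest of the 4 cytoplasmic libraries for 39 (25.3%). For 33 of the 45 the mutant libraries numbered 1 were the highest in all 3 kinds of extract, against 2.22% of the 20091 genes tested in both fits. The other 12 were LHCB4.3, LHCA5, LHCA6, PSAF, PSAH1, PSBO2, PSBR, PSBX and the 4 RBCS genes. These are 3 libraries that share a number, and the labels do not say whether they came from the same plants. They were singled out after the values were seen, so these counts describe them and carry no test.

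**Figure D2:**
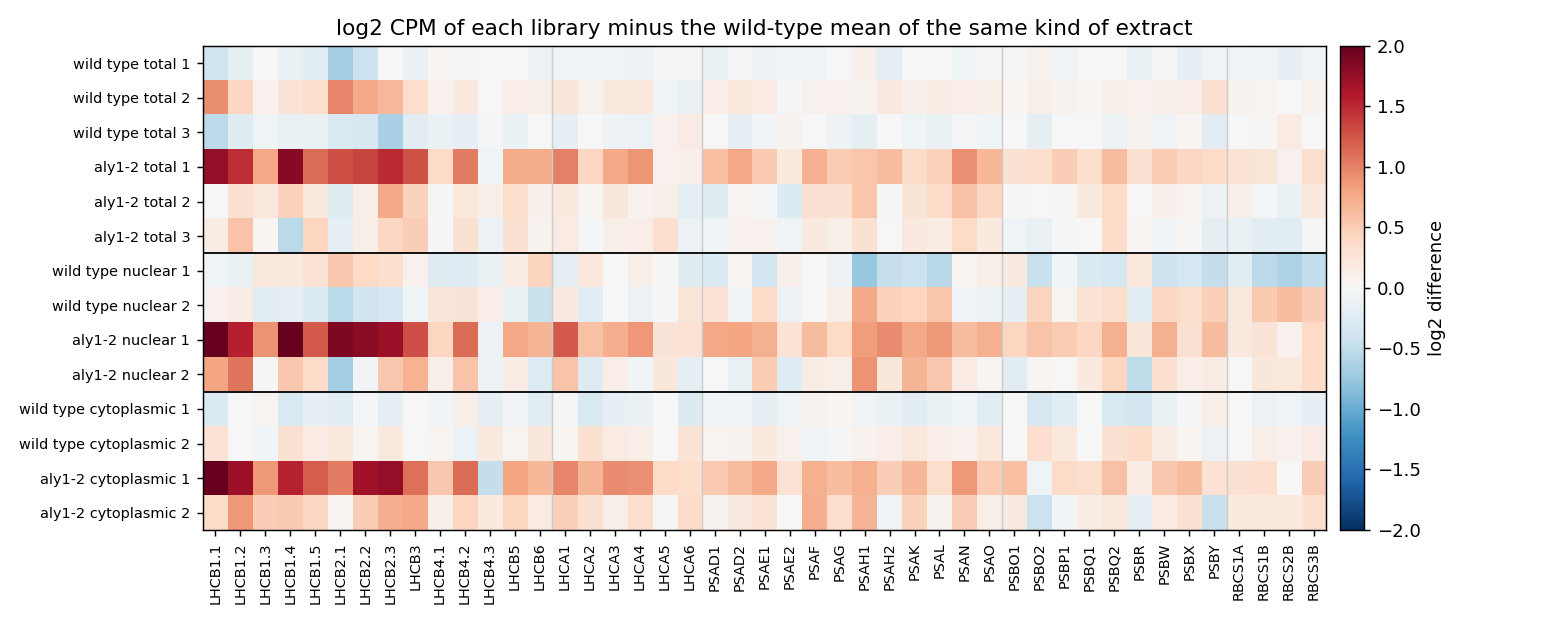
Each row is a library and each column a gene; colour gives log2 CPM minus the mean of the wild-type libraries of the same kind of extract, from -2 (blue) to 2 (red), in the order LHCB, LHCA, PSA, PSB, RBCS. The rows of aly1-2 replicate 1 are red across most LHCB genes in total, nuclear and cytoplasmic RNA, and wild-type total replicate 2 is red at LHCB1.1, LHCB2.1 and LHCB2.2.

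The excess in replicate 1 over the other aly1-2 libraries was graded by role. In total RNA its median was 0.80 on the log2 scale for LHCB, 0.50 for LHCA, 0.40 for PSA, 0.38 for PSB and 0.29 for RBCS, against 0.01 over all genes. In nuclear RNA the medians were 0.87 for LHCB and 0.02 for RBCS, and in cytoplasmic RNA 0.74 and 0.12. The excess was over 1 in total RNA for 5 LHCB genes, namely LHCB1.1, LHCB1.2, LHCB1.4, LHCB2.1 and LHCB2.2, and for no gene of the other roles.

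LHCB1.4 had the largest excess in total RNA, 1.86, and LHCB2.1 the largest in nuclear RNA, 2.55. For LHCB4.3 replicate 1 lay below the mean of the other mutant libraries, with differences of -0.08 in total, -0.02 in nuclear and -0.67 in cytoplasmic RNA. In total RNA its 3 mutant values were 76.3, 87.4 and 74.9 CPM, so replicate 1 was not the lowest. The lowest difference in total RNA was -0.15, for LHCA5, and the lowest in nuclear RNA was -0.12, for RBCS2B. Across the 45 genes the excess correlated between total and nuclear RNA with Pearson's r = 0.82 and between total and cytoplasmic RNA with r = 0.82. Genes of 1 library share its depth and composition, so these values are descriptions.

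**Figure D3:**
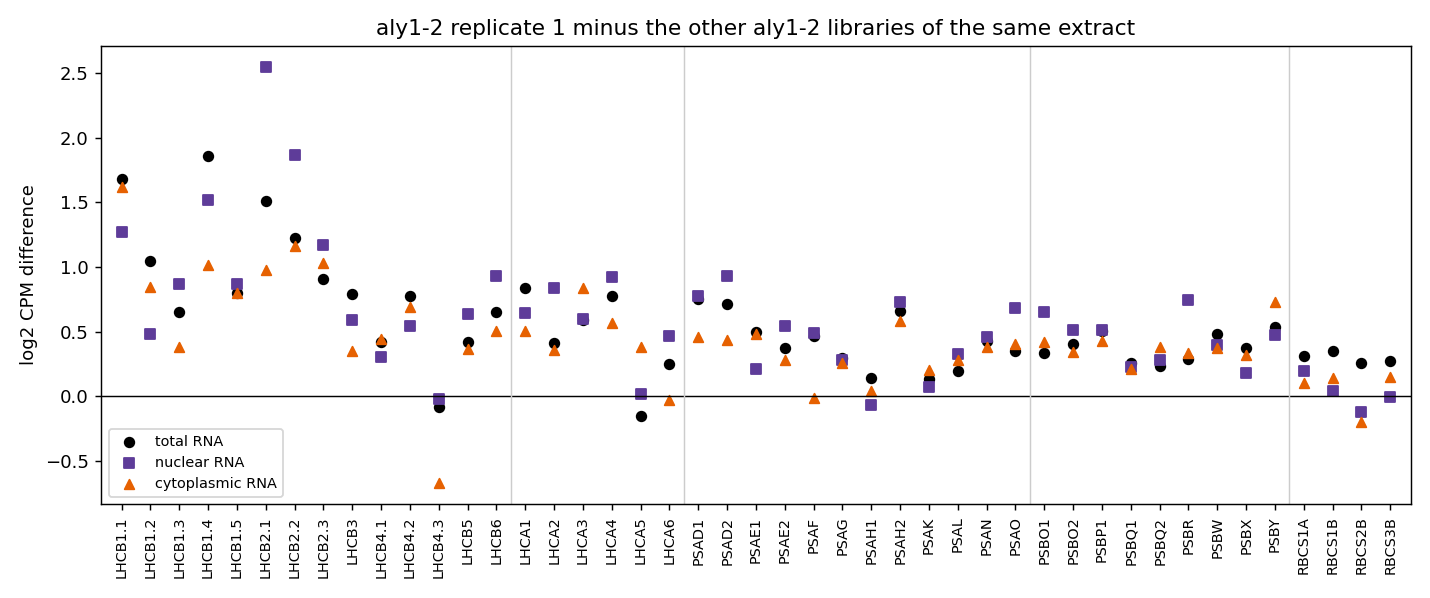
For each gene, log2 CPM of aly1-2 replicate 1 minus the mean of the other aly1-2 libraries, in total (circles), nuclear (squares) and cytoplasmic RNA (triangles). LHCB1.1, LHCB1.4, LHCB2.1 and LHCB2.2 lie between 0.98 and 2.55, and the RBCS genes between -0.20 and 0.35.

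The order of the genes in this excess resembled their order in wild-type total replicate 2. Over the 45 genes, the deviation of that library from its group mean and the deviation of aly1-2 total replicate 1 from its own correlated with Pearson's r = 0.80 and Spearman's rho = 0.82. In wild-type replicate 2, LHCB2.1 was 2.77 times, LHCB1.1 2.62 times and LHCB2.2 2.2 times the mean of replicates 1 and 3. For LHCB4.3 the ratio was 1.01. Over all genes tested the correlation of these 2 libraries was 0.43. This pair was singled out after the values were seen, and its r over the 45 genes was the highest among pairs of a wild-type and a mutant total library. Wild-type replicate 1 and aly1-2 replicate 2 had r = 0.74 over the 45 genes. The other such pairs ran from -0.75 to 0.51. Deviations within a group are tied to each other, so these values are descriptions.

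Markers of other cells and stages were read as summed levels in the same total libraries. Each gene was detected in at least 1 total library of each genotype. The 5 late pollen markers summed to 1139, 2211 and 4166 CPM in aly1-2 replicates 1, 2 and 3. In wild type they summed to 1715 to 2321 CPM. Replicate 1 thus lay below the wild-type range, and replicate 3 lay further above it. In nuclear RNA the sum was 1255 and 3484 CPM in aly1-2 and 1458 and 2264 CPM in wild type. The lowest sum was again in aly1-2 replicate 1, and the sum furthest from wild type was in replicate 2. The members differed: in total RNA VGD1, PPME1 and VGDH2 were lowest in aly1-2 replicate 1, while PRF4 and PRF5 were not. In nuclear RNA only VGD1 was lowest there. In cytoplasmic RNA the sum was 462 and 705 CPM in aly1-2, and replicate 1 lay within the wild-type range of 443 to 479 CPM. The 3 senescent leaf markers summed to 50.7, 25.1 and 21.5 CPM in aly1-2 total RNA. Replicate 1 lay inside the wild-type range of 47.5 to 67.5 CPM and the other mutant libraries lay below it. This spread between the mutant libraries came from SAG13, at 30.2, 4.02 and 2.70 CPM. NYE1 was nearly level, at 19.6, 20.2 and 18.6 CPM, and SAG12 stayed below 1 CPM. The 6 tapetum markers summed to 94.9, 126 and 124 CPM, with replicate 1 inside the wild-type range of 87.5 to 101 CPM. The 5 guard cell markers summed to 32.2, 35.2 and 41.8 CPM, all above the wild-type range of 26.4 to 29.8 CPM. Most of this came from FAMA, at 19.8, 19.7 and 25.6 CPM against 14.8, 13.7 and 12.2 CPM in wild type. MYB60 was also above wild type, whereas KAT1, HT1 and EPF1 overlapped it. The 5 markers of dividing cells summed to 202, 199 and 177 CPM, against 167 to 193 CPM in wild type, and did not separate replicate 1 from replicate 2. The part of these lists in the result was not tested, and in bulk RNA fewer cells of a type cannot be told apart from less RNA per cell.

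Without aly1-2 total replicate 1, the median log2 fold change of the 45 genes in total RNA was 0.057 instead of 0.30. PSAN was then called, at 0.50 (SE 0.12, edgeR adjusted p = 0.0306), in a fit that called 7.89% of all genes. The genes together took 3.81%, 2.80% and 2.54% of nuclear-gene counts in the aly1-2 total libraries, a mean of 3.05% ± 0.675 (SD, n = 3) against 2.54% ± 0.188 in wild type (SD, n = 3). The ratio of the means was 1.2, and 1.05 without that library. An exact permutation test of 3 against 3 libraries cannot give a p below 0.1, so no test was made on the share.

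**Figure D4:**
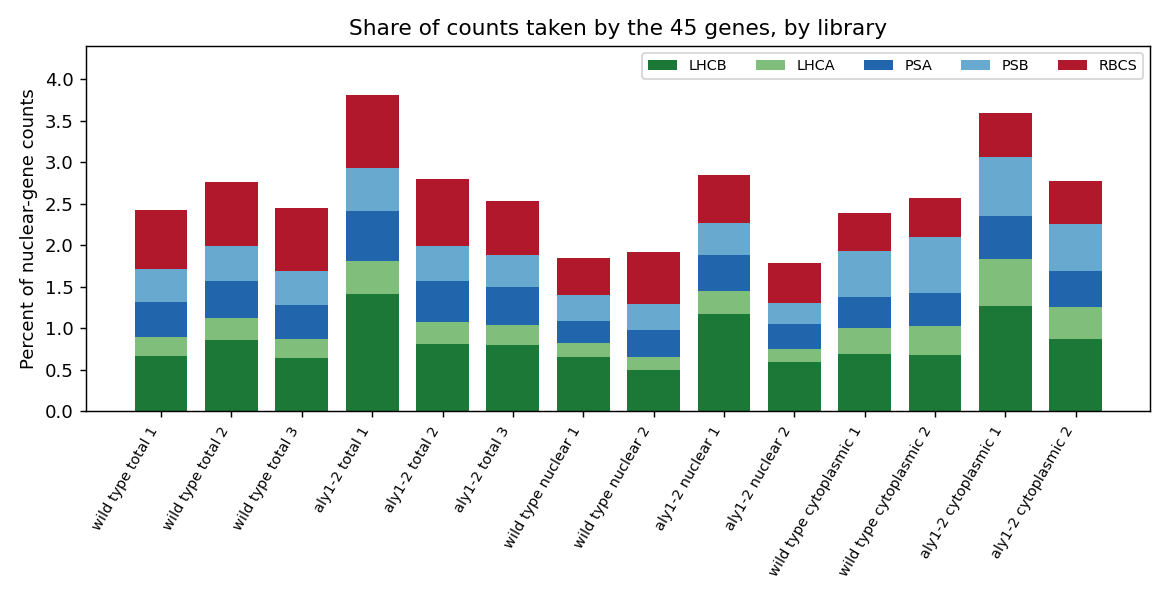
Percent of the counts of nuclear genes (ribosomal RNA genes left out) taken by the 45 genes in each library, stacked by role. The bars of aly1-2 replicate 1 reach 3.81% in total, 2.84% in nuclear and 3.60% in cytoplasmic RNA, each the highest of its kind of extract.

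In nuclear RNA none of the 45 genes passed between genotypes by edgeR (0.0381% of 20971 genes passed), none by DESeq2, and 7 had an unadjusted p under 0.05 (2.26% of all genes). The genes took 1.85% and 1.92% of nuclear-gene counts in wild type and 2.84% and 1.78% in aly1-2, so the mutant libraries lay on either side of the wild-type ones. The log2 fold change was positive for 43 genes, against 52.8% of all genes, with a median of 0.41. Without both aly1-2 fraction libraries numbered 1, an alternative chosen after seeing the data, the median was 0.11, 29 genes were positive (48.2% of all genes) and 1 had an unadjusted p under 0.05 (5.62% of all genes). Each mutant group is then 1 library, assumed to vary like the wild-type libraries.

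In cytoplasmic RNA none passed by edgeR (0.0143% of all genes passed), 1 passed by DESeq2 and 10 had an unadjusted p under 0.05 (9.09% of all genes). The share of counts was 2.39% and 2.57% in wild type and 3.60% and 2.77% in aly1-2, with no overlap. The log2 fold change was positive for 41 genes, against 49.5% of all genes, with a median of 0.43. Without the libraries numbered 1 the median was 0.22, 40 genes were positive (46.2% of all genes) and none had an unadjusted p under 0.05 (8.9% of all genes). The gene called by DESeq2 was LHCB1.2 (DESeq2 log2 fold change 1.403, adjusted p = 0.0390). It was at 243 and 245 CPM in wild-type libraries, against 802 and 445 CPM in aly1-2. LHCB1.2 is a near-identical copy with fractional counts, and its edgeR adjusted p was 0.369. For the sum of LHCB1.1, LHCB1.2 and LHCB1.3 the edgeR adjusted p was 0.519. The share of all genes called by DESeq2 is not given here, so this call is no result about the members. Of the 45 genes 31 had cytoplasmic groups that did not overlap with the mutant higher, against 17.1% of all genes, and 17 had such nuclear groups, against 14% of all genes. LHCB4.3 was the only antenna gene of photosystem II with a negative fold change in total, nuclear and cytoplasmic RNA, at -0.03, -0.12 and -0.13.

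Nucleus and cytoplasm were compared to ask where these transcripts reside at steady state. In wild type 14 of the 45 genes were higher in cytoplasmic than in nuclear RNA and none was lower, where 8.03% of all genes were higher and 11.1% lower (edgeR adjusted p under 0.05). The median log2 fold change of the 45 was 0.73, against -0.05 for all genes. In aly1-2, 13 were higher and none lower, where 7.8% of all genes were higher, and the median was 0.74. Scaling makes these values relative to the bulk of the transcripts of each extract, and amounts per cell were not measured.

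In wild type the subunits of photosystem II had the highest median of the roles, 1.21, and 7 of 9 PSB genes passed, as did 2 of 14 LHCB, 2 of 6 LHCA, 3 of 12 PSA and none of 4 RBCS genes. In aly1-2, 5 of 9 PSB genes and 3 of 6 LHCA genes passed and both roles had a median of 1.099, with 2 of 14 LHCB, 3 of 12 PSA and none of 4 RBCS genes. Calls were shared for 12 genes, which were 85.7% of the wild-type calls and 92.3% of the mutant calls: LHCB4.3, LHCB5, LHCA4, LHCA5, PSAD2, PSAH2, PSAN, PSBO2, PSBQ1, PSBQ2, PSBR and PSBW. PSBP1 and PSBY passed in wild type and LHCA3 in aly1-2. PSBO2, a manganese-stabilising protein, was at 23.3 and 44.1 CPM in wild-type nuclear and 111 and 179 CPM in wild-type cytoplasmic RNA. Its groups did not overlap, and the log2 fold change was 2.11 (SE 0.39, edgeR adjusted p = 0.00315). In aly1-2 PSBO2 was at 47.8 and 33.4 CPM in the nucleus and 133 and 105 CPM in the cytoplasm, a log2 fold change of 1.55 (SE 0.38, edgeR adjusted p = 0.0145).

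PSBQ1 (AT4G21280), an extrinsic protein of the oxygen-evolving complex, was at 51.8 and 78.4 CPM in wild-type nuclear and 211 and 213 CPM in cytoplasmic RNA. In aly1-2 it was at 85.1 and 72.8 CPM and at 272 and 235 CPM. The groups were apart in both genotypes, with log2 fold changes of 1.70 (SE 0.32, edgeR adjusted p = 0.00325) and 1.68 (SE 0.31, edgeR adjusted p = 0.00353). It passed in all 8 fits that left out 1 library. PSBQ2, its close relative, had 1.37 and 1.21. The sum of PSBQ1 and PSBQ2 was the 1 paralog sum of 10 that passed in each genotype.

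PSAH2 (AT1G52230), a photosystem I subunit at the docking site of mobile antenna, was at 21.6 and 41.5 CPM in wild-type nuclear and 88.1 and 107 CPM in cytoplasmic RNA, a log2 fold change of 1.63 (SE 0.39, edgeR adjusted p = 0.0124). PSAH1 (AT3G16140), which encodes a near-identical protein, was at 17.1 and 50.1 CPM and at 37.9 and 41.7 CPM, with overlap and a log2 fold change of 0.24. The same pattern of values held for PSBO2 beside PSBO1, whose log2 fold change was 0.10. Differences between paralogs were not tested.

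The lowest passing values in wild type were 1.06 for PSBP1 (SE 0.33, edgeR adjusted p = 0.0383), 1.12 for PSAD2 (SE 0.35, edgeR adjusted p = 0.0385) and 1.16 for LHCB4.3 (SE 0.33, edgeR adjusted p = 0.0260). PSBP1 (AT1G06680), of the oxygen-evolving complex, was at 202 and 220 CPM in nuclear and 378 and 503 CPM in cytoplasmic RNA. PSAD2, which docks ferredoxin, was at 36.1 and 33.6 CPM and at 72.6 and 79.4 CPM. LHCB4.3 was at 25.5 and 30.7 CPM and at 54.3 and 71.2 CPM. In these 3 genes the groups did not overlap, as in 29.3% of all genes with the cytoplasm higher.

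In aly1-2 the highest beside PSBQ1 and PSBO2 was LHCA4, at 442 and 232 CPM in nuclear and 1196 and 809 CPM in cytoplasmic RNA (log2 fold change 1.57, SE 0.37, edgeR adjusted p = 0.0123). PSBW, a small membrane subunit, was the lowest passing there, at 184 and 140 CPM and at 391 and 302 CPM (log2 fold change 1.099, SE 0.35, edgeR adjusted p = 0.0431). PSAD2 followed, at 60.3 and 31.3 CPM and at 116 and 85.7 CPM (1.14), and LHCB4.3, at 25.7 and 26.1 CPM and at 44.4 and 71.1 CPM (1.15). The groups were apart in each of these 4 genes, as in 27.7% of all genes with the cytoplasm higher.

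Genes at the other end did not pass. LHCB1.1 was at 154 and 172 CPM in wild-type nuclear and 84.6 and 125 CPM in cytoplasmic RNA, a log2 fold change of -0.63. RBCS1A was at 1501 and 2013 CPM and at 1259 and 1269 CPM, a log2 fold change of -0.47. In each the nuclear values were above the cytoplasmic ones. The log2 fold change was positive for 35 of the 45 genes in wild type, against 48.3% of all genes, and for 37 in aly1-2, against 46.5%.

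**Figure D5:**
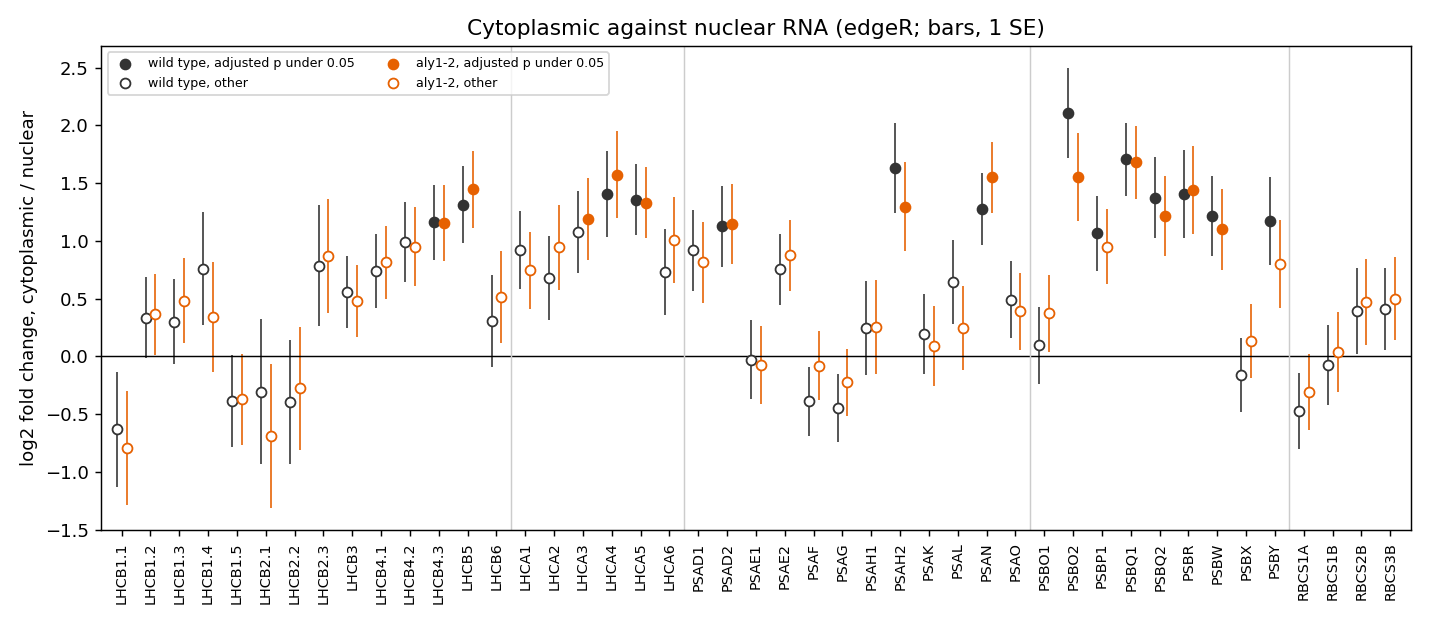
log2 fold change of cytoplasmic against nuclear RNA for each gene in wild type (dark) and aly1-2 (orange), with 1 SE; filled symbols have an edgeR adjusted p under 0.05. Values run from -0.63 to 2.11 in wild type and from -0.79 to 1.68 in aly1-2, with the PSB genes mostly above 1 and the RBCS genes between -0.47 and 0.50.

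The ratio of cytoplasmic to nuclear RNA was then compared between genotypes. The interaction of genotype and fraction passed for none of the 45 by edgeR or DESeq2, none had an unadjusted p under 0.05 (3.36% of all genes did), and 0% of all genes passed by edgeR. The largest interaction in size was that of PSBO2, at -0.56. Over the 45 genes the log2 fold changes of wild type and aly1-2, which share no library, correlated with Pearson's r = 0.95 and Spearman's rho = 0.95. The number of coding introns was set beside these values. The median log2 fold change in wild type was 0.32 for the 10 members without a coding intron, 0.60 for the 28 with 1 or 2 and 1.31 for the 7 with 3 or more. Over all protein-coding genes the medians of these classes were -0.07, 0.01 and -0.03. The classes of the members also differ in role. The 7 were LHCA1, LHCA2, LHCA4, LHCA5, LHCB5, PSBP1 and PSBR, while the LHCB1 genes had no coding intron. The part of introns was not tested.

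Each of the cytoplasmic calls rests on 2 libraries per group. Fits that leave out 1 of these libraries call fewer genes in general. Without aly1-2 nuclear replicate 1 the median log2 fold change of the 45 in aly1-2 was 1.08, against 0.74 with all libraries. Without wild-type cytoplasmic replicate 2, 1 of the 45 was higher in wild type, where 2.02% of all genes were, and the median was 0.40. Without cytoplasmic replicate 1 or nuclear replicate 1, 5 were higher in wild type (3.83% and 2.52% of all genes), and without nuclear replicate 2, 7 were (3.95%). In aly1-2, only PSBQ1 was higher without nuclear replicate 2 (2.83% of all genes), and LHCB2.1 was called lower there. Without cytoplasmic replicate 1, PSBQ1 and LHCB4.3 were higher (2.75% of all genes), and without cytoplasmic replicate 2, 7 genes were (3.94%). Without both libraries numbered 1 none passed in aly1-2, where 1.76% of all genes were higher and the median of the 45 was 0.75. That comparison sets 1 library against 1, with a spread taken from the wild-type groups alone.

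Other genes of photosynthesis were read from 7 lists. No gene of any of them passed between genotypes in total, nuclear or cytoplasmic RNA by edgeR. The medians in total RNA were 0.05 for 10 nuclear genes of electron transport and ATP synthase, 0.01 for 13 Calvin cycle genes, 0.04 for 14 chlorophyll synthesis genes, -0.08 for 7 transcription regulators, -0.09 for 6 plastid sigma factors, -0.09 for 4 antenna targeting genes and -0.18 for 5 photosystem subunits not among the 45. These medians include aly1-2 replicate 1, and medians without that library are not given for the lists. For the 45 genes the median in total RNA was 0.30 with that library and 0.057 without it. The smallest adjusted p of the lists in total RNA was that of HY5, a light-signalling transcription factor named after its values were seen. HY5 was at 9.62, 9.98 and 10.6 CPM in wild-type libraries, against 5.93, 6.32 and 5.31 CPM in aly1-2, without overlap (log2 fold change -0.78, SE 0.16, edgeR adjusted p = 0.0836).

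Between nucleus and cytoplasm in wild type, 8.03% of all genes tested were higher in cytoplasmic RNA and 11.1% lower. Of 13 Calvin cycle genes 7 were higher and 1 lower. Of 14 chlorophyll synthesis genes 5 were higher and 1 lower. GAPA1, a subunit of chloroplast glyceraldehyde-3-phosphate dehydrogenase, had a log2 fold change of 1.90 (SE 0.30, edgeR adjusted p = 0.00126). CHLM, of chlorophyll synthesis, had 1.61 (SE 0.29, edgeR adjusted p = 0.00302), and CHLD, a subunit of magnesium chelatase, had -1.78 (SE 0.37, edgeR adjusted p = 0.00618). Of the electron transport genes 2 of 10 were higher, of the other photosystem subunits 3 of 5, and of the antenna targeting genes 2 of 4. Among the transcription regulators tested, GNC, a GATA factor of greening, was higher at 3.53 (SE 0.62, edgeR adjusted p = 0.00243) and PIF1, a repressor of greening in the dark, lower at -1.62 (SE 0.46, edgeR adjusted p = 0.0273). No sigma factor passed in wild type.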

How the data were processed

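Libraries of poly(A)+ RNA were made with a directional kit, per the labels' protocols. The deposited gene values are estimated counts (expected counts) per library, not scaled or pooled; the submitters' processing notes name STAR 2.5.1b, Subread 1.6.1 with featureCounts, and the build TAIR10 as used by the authors. Whole numbers made up 86.4% to 92.7% of each library's values. The sources used here do not give the treatment of strand or of reads with several places, so values of near-identical copies (LHCB1, RBCS) and of the 16 members that overlap an antisense gene are uncertain. The files hold no coordinates; names, positions, exon lengths and introns came from TAIR10.1, matched for 37051 of 37336 identifiers. Because the design had assumed whole counts, values were rounded before testing.

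The quasi-likelihood test came from edgeR (version 4.0.16, in R 4.3.3). Low genes were removed by filterByExpr with a count of 10 and a total of 15 as minimums, libraries were scaled by TMM, and p-values had Benjamini-Hochberg adjustment over all genes tested. The total comparison used 6 libraries (20431 genes, biological coefficient of variation 0.179). The fraction comparisons came from 1 fit of 8 libraries with a mean per group (20971 genes, 0.340). Each fit had 4 residual degrees of freedom. SE was taken as the size of the log2 fold change over the root of F. CPM was scaled separately for total and fraction libraries, and log2 differences of CPM used a pseudocount of 0.5. The fits were tested on simulated counts. No 2 libraries were identical. DESeq2 1.42.0, RLE size factors, no filter, leaving out ribosomal RNA and organelle genes, a replicate block and leaving out each library were tried as alternatives.

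The members and all lists were chosen with earlier results of these data known. Values in every library were to be given for ALY1, for passing members (the 3 highest and 3 lowest log2 fold changes where more than 6 passed), for the highest and lowest level per kb in each role and for paralogs set side by side. Transposable element counts and plastid-encoded genes were not used here.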

Additional observations from a re-analysis of the deposited data

How the results depend on the processing

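Under RLE size factors, and without ribosomal RNA and organelle genes, counts of passing members stayed within 1.5 times of the reported ones in every comparison. Without a filter on low counts, 1 member passed in total, 2 in nuclear and 2 in cytoplasmic RNA between genotypes, and DESeq2 gave 4 in total and 1 in cytoplasmic RNA. DESeq2 called 4 paralog sums in wild type and 3 in aly1-2 between cytoplasm and nucleus. The shares of all genes called without a filter, or by DESeq2 in cytoplasmic RNA and for the paralog fits, are not given here. These counts are therefore no result about the members, and the cause of the changes was not tested. Same-numbered wild-type and aly1-2 total libraries deviated from their group means with correlations of -0.12, -0.28 and 0.31 over all genes. For nuclear libraries the value was 0.22 and for cytoplasmic libraries -0.04. Deviations within groups of 2 or 3 libraries cannot settle whether the number marks a batch, and the labels give only the number. With the number as a replicate block, the calls between genotypes remained at 0. Between cytoplasm and nucleus 15 members were higher in wild type and 13 in aly1-2, where 8.54% and 8.01% of all genes were. A replicate block within genotype, added after seeing the data, gave 18 higher in wild type, and 20 in aly1-2, of which 19 were higher and 1, LHCB1.1, lower. The share of all genes called in that fit is not given here, so its counts are no result about the members. Without both aly1-2 fraction libraries numbered 1, also added later, the nuclear genotype median was 0.11 and no member passed between cytoplasm and nucleus in aly1-2, where each fraction is 1 library and the spread comes from the wild-type groups alone.

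Leaving out 1 library at a time, the count of passing members ranged from 0 to 1 in total and from 0 to 2 in nuclear RNA between genotypes, and from 1 to 15 in wild type and 2 to 13 in aly1-2 between cytoplasm and nucleus. The median log2 fold change ranged from 0.057 to 0.41 in total, from 0.14 to 0.67 in nuclear and from 0.22 to 0.71 in cytoplasmic RNA between genotypes. It ranged from 0.40 to 1.00 in wild type and from 0.39 to 1.08 in aly1-2 between cytoplasm and nucleus, and from -0.20 to 0.29 for the interaction. Paralog sums that passed between cytoplasm and nucleus ranged from 0 to 2 in each genotype. In total RNA the sign of the genotype difference turned for 14 of the 45 in at least 1 of these fits, 12 of them without aly1-2 replicate 1, LHCB1.1 and LHCB2.1 included. Among the genes of highest or lowest level in their role, these were LHCA6 (-0.15 to 0.014), RBCS1A (-0.016 to 0.20), PSBO2 (-0.076 to 0.17) and RBCS1B (-0.11 to 0.11). Cytoplasmic libraries held the fewest nuclear-gene counts, which limits precision there.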
